A study of Xenopus tropicalis with 9 samples.

Results

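The genes of the AP-1 transcription factor family were followed in *Xenopus tropicalis* embryos in which Fgf signalling was raised or the transcriptional repressor Cic (Capicua) was targeted. They were chosen by name as *fos*, *fosb*, *fosl1*, *fosl2*, *jun*, *junb*, *jund*, *atf3*, *batf3* and *jdp2*. Of these 10 names, 9 matched a row of the deposited table, which lists 23633 genes, and *jdp2* was not analysed here. RNA came from whole embryos of the Nigerian strain at neurula stage 14, in 9 poly(A) libraries that form 3 groups of 3. Control embryos received water, Fgf4 overexpressing embryos 5 pg of the plasmid Cska-Fgf4, and Cic knockdown embryos 1 ng each of the mRNAs for a forward and a reverse Cic-TALEN, a pair of nucleases that cut the exon encoding the DNA-binding HMG box of Cic. The number of embryos in a library is not given in the sources used here. Plasmid expression is zygotic, and TALEN cutting is mosaic in the injected generation, so each library averages over cells that differ in dose or genotype.

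AP-1 is a dimer of basic leucine zipper proteins. Fos proteins do not dimerise stably with each other and bind DNA together with a Jun protein, whereas Jun proteins also form dimers among themselves. *Fos* and several of its relatives are immediate early genes, transcribed within minutes of growth factor or wound signals through the Map kinase Erk, and AP-1 is a known mediator of Fgf signalling in the *Xenopus* mesoderm. Cic sits on its target genes until Erk signalling removes its repression.

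The unit is TPM, the share of a transcript among all transcripts after division by its length, so that levels can be compared between genes. The values had been rescaled between libraries by the authors, and a library sums to between 871757 and 1162165. The values hold no counts, so the depth behind a low value is unknown. The injected *fgf4* stood between 95.4 and 1692 TPM in the Fgf4 libraries and at most 4.07 TPM in control libraries. *cic* transcripts averaged 14.0 ± 0.677 TPM in control embryos and 13.4 ± 1.46 TPM after Cic knockdown (SD, n = 3 each), and since TALENs cut DNA their level is no check of the knockdown. Each of the 8 lists of region and tissue markers used, from neural plate to endoderm, had all its matched genes above 0 in at least 1 library. In whole embryos, a change in the number of cells that express a gene cannot be told apart from a change in RNA per cell.

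In control neurulae the 3 Jun genes had the highest mean levels. *junb* was at 19.9 ± 7.67, *jund* at 15.9 ± 4.67 and *jun* at 14.8 ± 16.4 TPM (SD, n = 3 each), and these levels did not differ beyond their spread. Below them came *fosl2* at 5.14 ± 1.16, *atf3* at 4.58 ± 0.650 and *fos* at 3.61 ± 1.55 TPM (SD, n = 3 each), which lay within the spread of each other and of *jun*. *fosl1* was at 0.926 ± 0.631, *batf3* at 0.228 ± 0.215 and *fosb* at 0.143 ± 0.0429 TPM (SD, n = 3 each), all under the lowest *fos* library, and the last pair overlapped. The *fos* level exceeded that of 54.3% of all listed genes, near the middle of the list.

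A gene was called where the unadjusted p was 0.01 or less and the change 1.75-fold or more, up or down, in a limma fit with condition and replicate number, provided that the mean reached 1.5 TPM in 1 of the groups compared. In Fgf4 overexpressing embryos 4 of the 10 named genes were called up (*fos*, *fosl1*, *junb* and *atf3*) and 0 down, where 1.4% of all genes tested were called up and 1.16% down (2.56% in all). In Cic knockdown embryos 7 of the 10 were called up (*fos*, *fosb*, *fosl1*, *jun*, *junb*, *jund* and *atf3*) and 0 down, where 3.99% of all genes tested were called up and 0.75% down (4.74% in all). The limits on TPM left 7 of the genes to test for Fgf4 and 8 for Cic knockdown. Of these, *fosl1* entered through the treated group alone in both comparisons, and *fosb* did so in Cic knockdown, so both were bound to be higher there. At a limma adjusted p (Benjamini-Hochberg, over all genes tested) under 0.05, 0 of the genes passed in either comparison, against 5 and 7 with an unadjusted p under 0.05, a mark that 13.3% and 17.2% of all genes tested passed. All p values are two-sided. The 3 control libraries serve in both comparisons. The study's own model held a term for embryo batch. No statement of which libraries share a batch, or that the replicate libraries came from separate clutches, was found in the labels. The p values therefore measure the spread between these libraries.

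**Figure D1:**
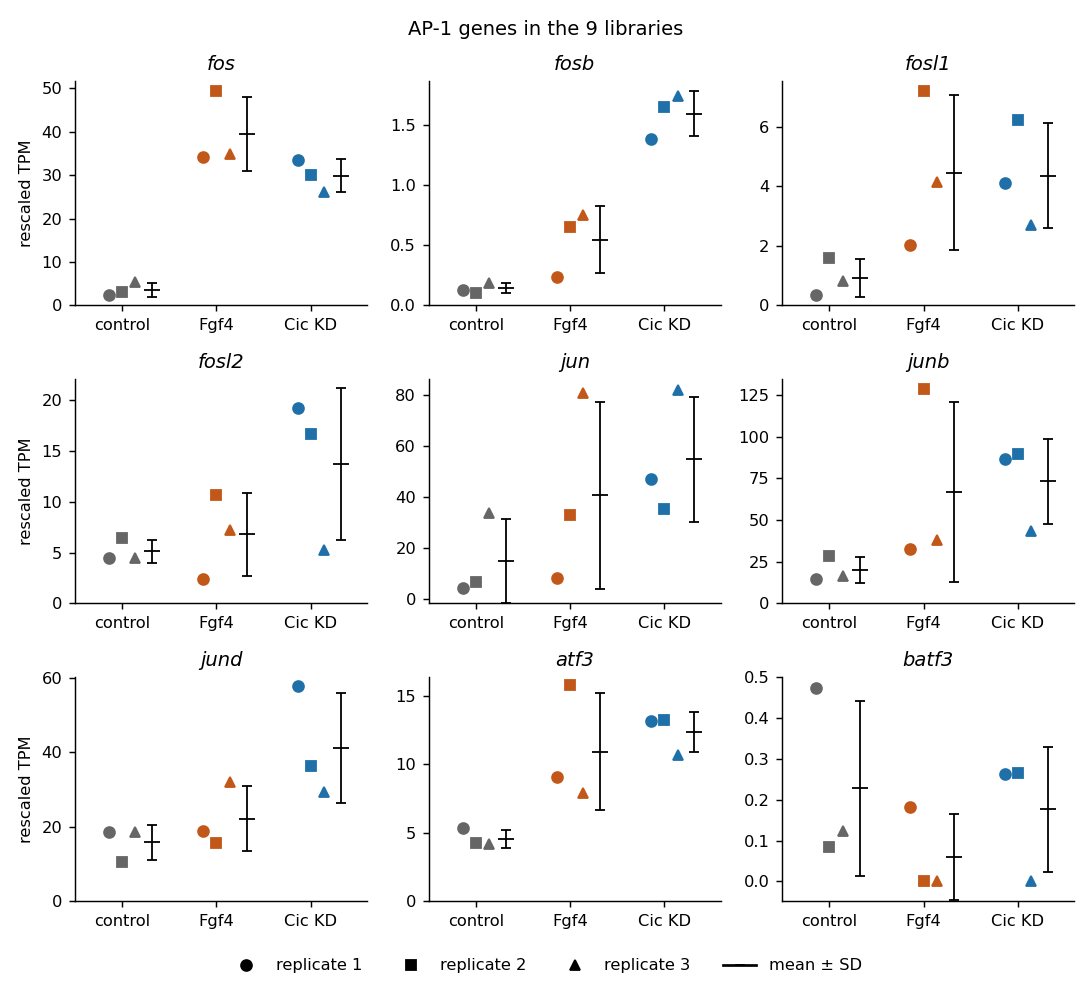
Rescaled TPM (linear axis, a scale of its own for each gene) of the 9 AP-1 genes in control, Fgf4 overexpressing and Cic knockdown (Cic KD) libraries, with symbols for the replicate number and a bar for the mean ± SD of 3 libraries. The treated *fos* libraries sit between 26.1 and 49.3 TPM, above the highest control at 5.32 TPM, while *jun* is highest in replicate 3 of every group.

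*fos*, the founding member of the family, had the smallest p of all genes tested in both comparisons. Control libraries 1, 2 and 3 held 2.30, 3.19 and 5.32 TPM of *fos*, Fgf4 libraries 34.1, 49.3 and 34.9 TPM, and Cic knockdown libraries 33.6, 30.0 and 26.1 TPM. Every treated library was above every control library, a separation seen in 3.3% of the genes tested for Fgf4 and 9.16% of those tested for Cic knockdown. *fos* rose 10.04-fold with Fgf4, a log2 change of 3.33 (SE 0.28, unadjusted p = 5.29e-06, limma adjusted p = 0.0711, or 0.0293 with no block for the replicate number). In Cic knockdown embryos it rose 7.72-fold, a log2 change of 2.95 (SE 0.28, unadjusted p = 1.22e-05, limma adjusted p = 0.0712, or 0.0409 with no such block). It was called in all 12 fits that left out a library or a replicate number, in each comparison. With these changes *fos* went from the 54.3% mark of listed genes to above 84.4% of them in Fgf4 and 81.6% in Cic knockdown embryos. The 3 Cic knockdown libraries lay just below the 3 Fgf4 libraries, as did those of 2.09% of the genes tested. The fitted log2 difference of Cic knockdown minus Fgf4 was -0.38, with a 95% interval from -1.04 to 0.29, which does not separate both treatments.

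*fosb*, a close relative of *fos* that is also an immediate early gene in mammals, was scarce throughout. It was listed at 0.132, 0.107 and 0.191 TPM in the control libraries, 0.233, 0.655 and 0.754 TPM in the Fgf4 libraries and 1.39, 1.66 and 1.75 TPM in the Cic knockdown libraries. The 3 groups of *fosb* values do not overlap and ascend from control through Fgf4 to Cic knockdown. All Cic knockdown libraries were above all Fgf4 libraries in 4.39% of the genes tested. With Fgf4 *fosb* stayed under 1.5 TPM and was not tested. In Cic knockdown embryos its log2 change was 1.70 (SE 0.34, limma adjusted p = 0.0877), a call lost without control library 2 and without replicate 2 or replicate 3 (unadjusted p up to 0.018). On the log2(TPM + 0.5) scale used here such low values understate a change, and the size depends on the pseudocount. A pseudocount of 0.1 took the log2 change to 2.81, and one of 1 took it to 1.18. With a filter at 5 TPM or with quantile normalization *fosb* was not tested. The direct log2 difference of Cic knockdown minus Fgf4 was 1.03 (SE 0.34, unadjusted p = 0.0171, limma adjusted p = 0.331) and did not pass the limits. In this comparison too *fosb* was tested through the Cic knockdown group alone, so it was bound to be higher there.

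*fosl1*, which encodes the Fos-like protein Fra-1, held 0.354, 1.60 and 0.821 TPM in control libraries 1, 2 and 3. It held 2.02, 7.18 and 4.14 TPM in the Fgf4 libraries and 4.12, 6.22 and 2.71 TPM in the Cic knockdown libraries. In all groups replicate 2 was highest, and each treated library exceeded every control library. However, *fosl1* averaged under 1.5 TPM in control embryos and was tested through the treated group alone in both comparisons. It was therefore bound to be higher there, and with a filter at 5 TPM it was not tested. *fosl1* rose by 1.75 on the log2 scale with Fgf4 (SE 0.32, limma adjusted p = 0.277) and by 1.80 with Cic knockdown (SE 0.32, limma adjusted p = 0.0765). Among the 12 fits that left out libraries, the Fgf4 call was lost in the one without replicate 2. The log2 difference of Cic knockdown minus Fgf4 was 0.05, with a 95% interval from -0.69 to 0.79.

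*fosl2*, which encodes Fra-2, was the Fos gene that neither treatment moved past the limits. Its control libraries held 4.50, 6.47 and 4.43 TPM, its Fgf4 libraries 2.45, 10.6 and 7.27 TPM and its Cic knockdown libraries 19.2, 16.7 and 5.26 TPM. The groups overlap, because Fgf4 library 1 was below all controls and Cic knockdown library 3 was below control library 2. The log2 change was 0.19 with Fgf4 (SE 0.52, unadjusted p = 0.726) and 1.17 with Cic knockdown (SE 0.52, unadjusted p = 0.0592, limma adjusted p = 0.307). The Cic knockdown ratios of the replicate pairs were 1.98, 1.30 and 0.22 on the log2 scale. A wide 95% interval, from -0.06 to 2.39, leaves the size of the *fosl2* change in Cic knockdown embryos undetermined.

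*jun*, the founding Jun gene, differed as much between replicate numbers as between treatments. Control libraries 1, 2 and 3 held 4.13, 6.55 and 33.6 TPM, Fgf4 libraries 8.36, 32.7 and 80.6 TPM, and Cic knockdown libraries 47.0, 35.1 and 82.0 TPM. Replicate 3 was the highest in each group, and control library 3 exceeded Fgf4 libraries 1 and 2. Replicate number took 43.9% and condition 44.0% of the variance of log2 *jun* over the 9 libraries, against 0.597% and 96.1% for *fos*. Within replicate numbers, *jun* was higher by 3.36, 2.34 and 1.27 on the log2 scale in Cic knockdown embryos, and the fitted 5.00-fold rise had a log2 value of 2.32 (SE 0.47, limma adjusted p = 0.0889). Without Cic knockdown library 1 the log2 value was 1.67. The call needs the replicate block (unadjusted p = 0.00152 with it and 0.0293 without it). With Fgf4 the pairs gave 0.94, 2.24 and 1.25, all positive, and the fitted log2 change of 1.47 (SE 0.47, unadjusted p = 0.016, limma adjusted p = 0.32) missed the limit on p. *jun* with Fgf4 did meet the limits in a fit of the control and Fgf4 libraries alone, and without Fgf4 library 1, Cic knockdown library 1 or replicate 1, with log2 changes between 1.47 and 2.00. The study, with its own model of the same libraries, listed *jun* among the genes raised by both treatments.

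*junb*, whose product can act as a weaker activator than Jun and as its antagonist in mammalian cells, had the highest group mean of the members in each group. It was not the highest member in every library. *jun* was higher in the 3 libraries of replicate 3, *jund* in control libraries 1 and 3, and *fos* in Fgf4 library 1. *junb* was at 14.7, 28.7 and 16.4 TPM in the control libraries, 32.8, 129 and 38.2 TPM in the Fgf4 libraries and 86.3, 89.3 and 43.7 TPM in the Cic knockdown libraries. Treated and control libraries did not overlap, but Fgf4 library 2 was more than 3 times as high as the other Fgf4 libraries. *junb* rose 2.81-fold with Fgf4, by 1.49 on the log2 scale (SE 0.33, limma adjusted p = 0.287), and 3.58-fold with Cic knockdown, by 1.84 (SE 0.33, limma adjusted p = 0.0776). The Cic knockdown call held in all 12 fits that left out libraries. The Fgf4 call was lost without the replicate block (unadjusted p = 0.0215) and in 4 of those 12 fits, without control library 1 or 2, replicate 2 or replicate 3.

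*jund*, which in mammals is expressed broadly and induced less than the other Jun genes, passed the limits in Cic knockdown embryos alone. Control libraries held 18.5, 10.5 and 18.7 TPM, Fgf4 libraries 18.9, 15.7 and 32.1 TPM and Cic knockdown libraries 57.8, 36.4 and 29.4 TPM. All Cic knockdown libraries stood above the controls, while Fgf4 library 2 lay within the control range. The log2 change was 1.33 with Cic knockdown (SE 0.31, limma adjusted p = 0.116) and 0.45 with Fgf4 (SE 0.31, unadjusted p = 0.188). The Cic knockdown call was kept in 6 of the 12 fits and lost without control library 1 or 2, Cic knockdown library 1 or 2, or replicate 1 or 2 (unadjusted p up to 0.037). The direct test of Cic knockdown minus Fgf4 gave 0.88 on the log2 scale (SE 0.31, unadjusted p = 0.0236, limma adjusted p = 0.336) and did not pass the limits. The table also lists *jund.2*, at 0.906 to 4.12 TPM in control and 1.87 to 4.78 TPM in treated libraries, and reads may have been divided between both genes.

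*atf3*, a stress-inducible member that represses transcription as a homodimer in mammals, rose with both treatments. Control libraries held 5.33, 4.25 and 4.16 TPM, Fgf4 libraries 9.09, 15.8 and 7.88 TPM and Cic knockdown libraries 13.2, 13.2 and 10.7 TPM. The lowest treated library was above the highest control in both comparisons. *atf3* rose 2.17-fold with Fgf4 (log2 change 1.11, SE 0.24, limma adjusted p = 0.287) and 2.54-fold with Cic knockdown (log2 change 1.34, SE 0.24, limma adjusted p = 0.0765). The Cic knockdown call held in all 12 fits that left out libraries, and the Fgf4 call was lost without control library 2, replicate 2 or replicate 3. It was also lost at a fold limit of 2.24. *batf3*, a gene known for its part in mouse dendritic cells, lies directly beside *atf3* in the gene order of the RefSeq annotation of assembly UCB_Xtro_10.0. It was listed at 0 in 3 of the 9 libraries and at no more than 0.475 TPM in any, and was not tested.

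**Figure D2:**
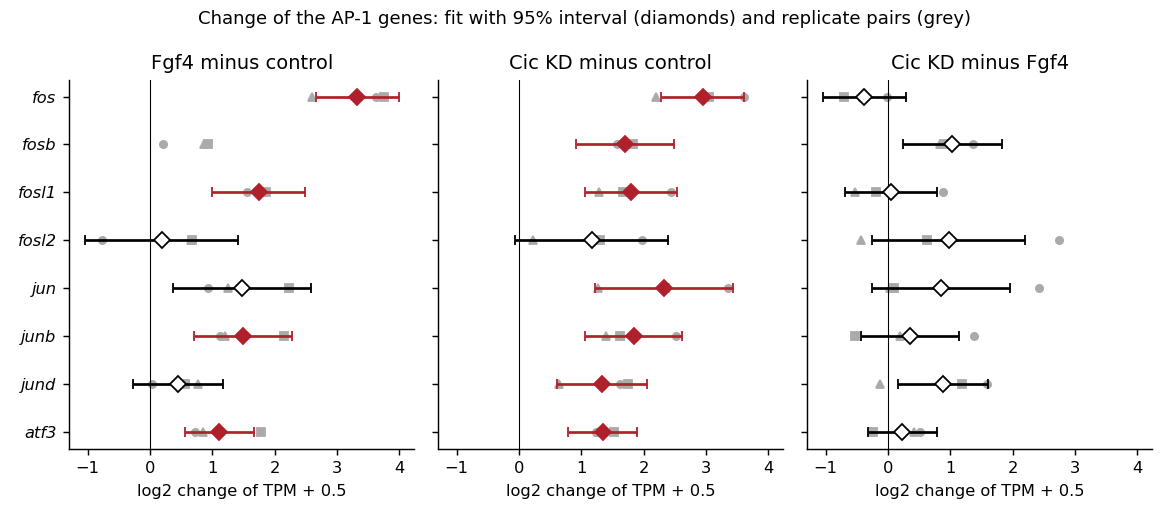
Log2 change of TPM + 0.5 for 8 AP-1 genes in 3 comparisons, with the fitted value and its 95% interval as a diamond (filled red where called, open where not) and the ratio of each replicate pair in grey. For *fos* the fitted values are 3.33 with Fgf4 and 2.95 with Cic knockdown, and no gene passes the limits between both treatments. *fosb* has no fitted value with Fgf4.

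No AP-1 gene was called between Cic knockdown and Fgf4 embryos (0 of 8 tested by limma, where 1.76% of genes were called up and 0.375% down, 2.13% in all). Of the 8, *fosb* and *jund* made 2 with an unadjusted p under 0.05, as did 13.5% of genes, but *fosb* was tested through the Cic knockdown group alone. *fosb*, *jun* and *jund* passed the limits in Cic knockdown and not in Fgf4 embryos, but their direct tests do not show that the treatments differ. For *jun* the log2 difference was 0.85 with a 95% interval from -0.26 to 1.96, and it was 0.20 without Cic knockdown library 1. Without Fgf4 library 3, Cic knockdown library 3 or replicate 3, *jund* was called in this comparison, at 1.21 to 1.39 on the log2 scale.

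Summed over *fos*, *fosb*, *fosl1* and *fosl2*, Fos family transcripts went from 9.81 ± 2.21 TPM in control to 51.2 ± 14.9 TPM in Fgf4 and 49.6 ± 12.1 TPM in Cic knockdown embryos (SD, n = 3 each). *fosl2* held 53.3% ± 10.7 of this sum in control embryos and *fos* 36.4% ± 11.4 (SD, n = 3). *fos* held 78.3% ± 8.38 with Fgf4 and 61.8% ± 9.65 with Cic knockdown (SD, n = 3), and *fosl2* 12.5% ± 5.36 and 26.1% ± 9.94. The prevailing Fos transcript of the control neurula was thus *fosl2* in 2 of 3 libraries, and that of both treated groups was *fos* in every library. No test was made on these sums, whose members were chosen with results known.

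Jun family transcripts summed to 50.6 ± 16.2 TPM in control, 129 ± 61.4 TPM in Fgf4 and 169 ± 19.4 TPM in Cic knockdown embryos (SD, n = 3 each). Their make-up differed between replicate numbers. In replicate 3 *jun* held 49.0%, 53.4% and 52.9% of the sum in control, Fgf4 and Cic knockdown embryos, while in the other 6 libraries its share lay between 11.0% and 24.6%. In replicate 2 *junb* was instead the largest part, at 62.8%, 72.7% and 55.5%. Jun transcripts outnumbered Fos transcripts 5.18 ± 1.18 to 1 in control, 2.46 ± 0.841 to 1 in Fgf4 and 3.52 ± 0.721 to 1 in Cic knockdown embryos (SD, n = 3 each). The lowest control ratio was 4.02, and Cic knockdown library 3 exceeded it at 4.33.

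**Figure D3:**
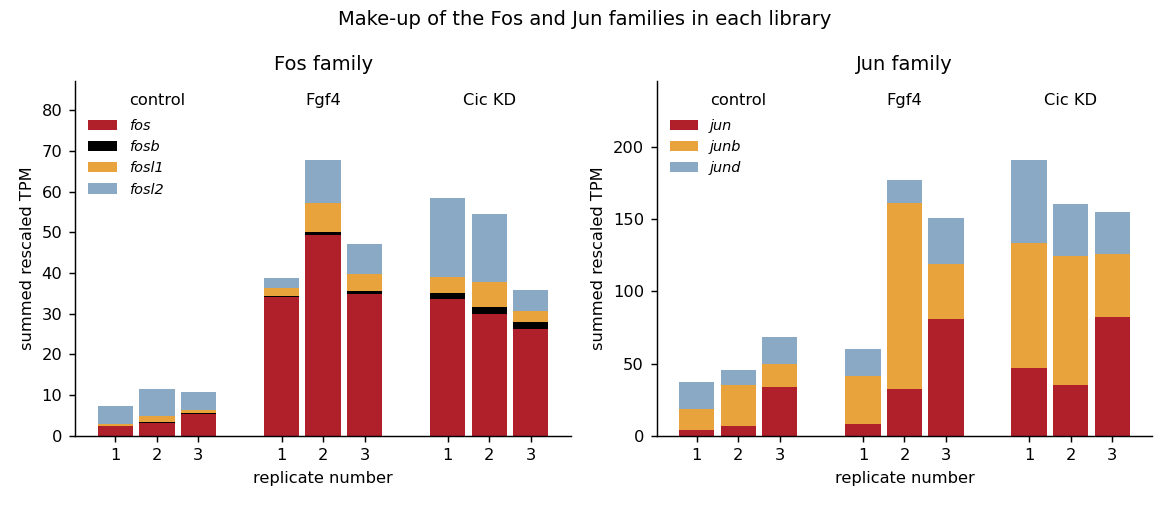
Stacked bars of rescaled TPM (from 0) for the members of the Fos family (left) and the Jun family (right) in each of the 9 libraries, by replicate number within control, Fgf4 and Cic knockdown (Cic KD). The *fos* part grows from at most 5.32 TPM in control to at least 26.1 TPM in treated libraries, and the *jun* part is the largest of its bar in replicate 3 of each group, at 49.0% to 53.4%.

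With the mean of each replicate number removed, the 8 AP-1 genes above the TPM limit were all positively correlated over the 9 libraries. Pearson's r ran from 0.42 for *fos* with *fosl2* to 0.97 for *jun* with *junb*, over 28 pairs of genes. These libraries share their treatments and their scaling, and the values are a description. *fosl1* was the member most like *fos* (r = 0.96), followed by *atf3* (r = 0.92) and *junb* (r = 0.92). *jund* had r = 0.61 with *fos* and *fosl2* r = 0.42.

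Among 13832 genes compared with *fos* in this way, those with a symbol and the highest r included *sfxn3* (0.990), *arrdc2* (0.989), *tatdn2* (0.987) and *znf277* (0.985). *fosl1* stood at rank 32, *atf3* at 105 and *junb* at 127. The likeness is one of shape and not of size. *arrdc2*, which encodes an alpha-arrestin, went from a mean of 5.56 TPM in control to 20.8 and 19.1 TPM in Fgf4 and Cic knockdown embryos, whereas *znf277* went from 4.37 to 8.20 and 7.08 TPM.

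The AP-1 genes were then set beside other genes of the pathway, in lists chosen with earlier results of these data known. Over all genes tested, 1.4% were called up and 1.16% down with Fgf4, and 3.99% up and 0.75% down with Cic knockdown. Genes listed as regulators of the *fos* promoter were not called in Cic knockdown embryos, with 0 of 8 tested by limma past the limits. Of these 8, 0 had an unadjusted p under 0.05 by limma. The median log2 change was -0.04, against -0.02 over all genes. The list includes the targeted *cic* itself (log2 change -0.07), whose transcript level is no check of the knockdown. *srf*, whose product binds the serum response element, was at 91.7 to 138 TPM in control, 98.4 to 249 TPM in Fgf4 and 88.0 to 128 TPM in Cic knockdown libraries. In Fgf4 embryos 1 of 9 tested was called up, the Ets gene *elk3*, at 0.146 to 0.325 TPM in control and 0.643 to 4.34 TPM in Fgf4 libraries, through which alone it was tested (log2 change 1.64, SE 0.46, limma adjusted p = 0.3). Of these 9, 2 had an unadjusted p under 0.05 by limma, as did 13.3% of all genes tested.

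Genes of the kinases that phosphorylate AP-1 proteins or feed into them were mostly not called. Of 12 tested with each treatment, *map3k1*, which encodes a kinase upstream of Jnk, was the only one called with Fgf4, up by 0.88 on the log2 scale (SE 0.20, limma adjusted p = 0.288), although its libraries overlap, at 4.44 to 21.3 TPM in control and 6.84 to 51.5 TPM with Fgf4. Of all genes tested 1.4% were called up with Fgf4. With Cic knockdown 0 of the 12 were called by limma and 2 had an unadjusted p under 0.05, *map2k4* (log2 change -0.39) and *rps6ka3* (0.53). This count is near the share of all genes tested, 17.2%. The gene of the Jun kinase Jnk1, *mapk8*, had log2 changes of 0.00 with Fgf4 and -0.06 with Cic knockdown, both smaller than their standard error of 0.14. Of the genes that act in AP-1 turnover or repression, 0 of 11 tested were called by limma with Fgf4, where 0 had an unadjusted p under 0.05, and 0 of 12 with Cic knockdown, where 2 did, again near 17.2%. The 2 were *zfp36*, which encodes a protein that speeds the decay of AU-rich mRNAs (log2 change 1.07, unadjusted p = 0.0326), and its relative *zfp36l1* (log2 change -0.59, unadjusted p = 0.0469).

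Other basic leucine zipper genes, outside the AP-1 names chosen here, were called in both directions. With Fgf4 1 of 28 was called up and 2 down, and with Cic knockdown 1 of 27 up and 2 down, with median log2 changes of 0.04 and 0.07. Over all genes tested the calls were 1.4% up and 1.16% down with Fgf4, and 3.99% up and 0.75% down with Cic knockdown. *cebpa*, a differentiation factor of myeloid and other lineages, fell in both, from 13.8 to 41.4 TPM in control libraries to 2.24 to 5.33 TPM with Fgf4 (log2 change -2.49, SE 0.42, limma adjusted p = 0.269) and 4.12 to 5.44 TPM with Cic knockdown (log2 change -1.97, SE 0.42, limma adjusted p = 0.0982). *nfil3* fell with Fgf4 and *nfe2l3* with Cic knockdown. *crem*, a relative of *creb1*, rose with Fgf4 by 1.39 on the log2 scale (SE 0.27, limma adjusted p = 0.287), and *mafa* rose with Cic knockdown, through which alone it was tested, by 1.90 (SE 0.48, limma adjusted p = 0.133). The Batf genes *batf* and *batf2* were not called in either comparison.

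Genes that AP-1 is known to activate in mammals were mostly not called. With Fgf4 2 of 14 tested were called up, where 1.4% of all genes tested were. With Cic knockdown 2 of 15 were called up, where 3.99% of all genes tested were, and 0 were down in both. Both comparisons called *mmp1* and *tgfb1*. *mmp1*, which encodes the collagenase long used as an AP-1 reporter, was at 0.331 to 0.528 TPM in control, 1.56 to 9.97 TPM in Fgf4 and 5.73 to 17.2 TPM in Cic knockdown libraries, with no overlap. Its log2 change was 2.35 with Fgf4 (SE 0.61, limma adjusted p = 0.3) and 3.41 with Cic knockdown (SE 0.61, limma adjusted p = 0.0768). *tgfb1*, which encodes a secreted growth factor, rose by 1.40 and 2.11 (log2, SE 0.36 each, limma adjusted p = 0.3 and 0.0765). Both genes were under 1.5 TPM on average in control embryos and were tested through the treated group alone. *mmp3* went the other way with Fgf4, at 141 to 156 TPM in control and 82.9 to 108 TPM in Fgf4 libraries. Its log2 change of -0.71 (SE 0.18, limma unadjusted p = 0.00535, limma adjusted p = 0.3) missed the fold limit. The cell cycle gene *ccnd1* had log2 changes of 0.27 and -0.18 and was not called.

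Immediate early genes outside AP-1 were called up in part. Of 25 tested with Fgf4, 7 were called up and 0 down, with a median log2 change of 0.40, and of 24 tested with Cic knockdown 5 were called up and 0 down, with a median of 0.37. Over all genes tested 1.4% were called up with Fgf4 and 3.99% with Cic knockdown. *ier3*, *sgk1*, *apold1* and *nfkbiz* were called in both. *apold1* in both comparisons, *nr4a2* with Fgf4 and *klf4* with Cic knockdown were under 1.5 TPM on average in control embryos and were tested through the treated group alone, so they had to be higher there. *ier3* was at 28.0 to 90.5 TPM in control, 99.8 to 284 TPM in Fgf4 and 184 to 308 TPM in Cic knockdown libraries. *egr1*, the zinc finger gene usually induced together with *fos*, rose with Fgf4 by 2.82 on the log2 scale (SE 0.53, limma adjusted p = 0.287). In Cic knockdown embryos *egr1* was at 8.83 to 13.6 TPM against 1.99 to 3.77 TPM in control, and did not pass the limit on p (log2 change 1.67, unadjusted p = 0.0159). The study, with its own model of the same libraries, listed *egr1* among the genes raised by both treatments. The study named several of these genes from the same libraries, so their counts are not independent evidence.

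**Figure D4:**
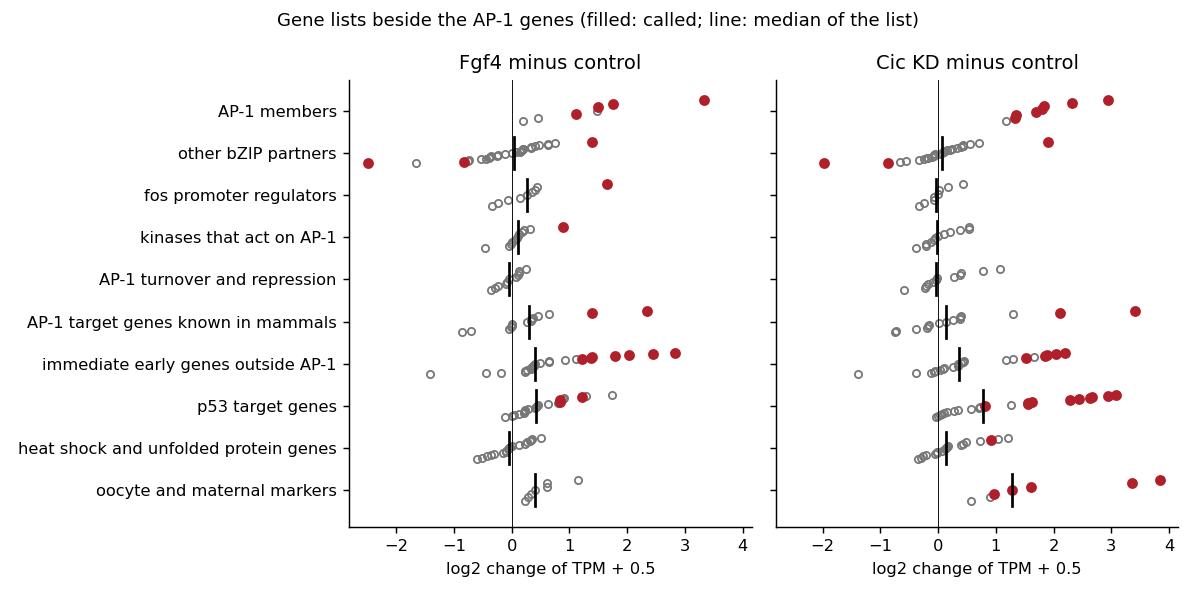
Log2 change of TPM + 0.5 of each gene tested (circles, filled red where called) in 10 lists, for Fgf4 minus control and Cic knockdown (Cic KD) minus control, with a line for the median of each list other than AP-1. AP-1 genes reach 3.33 and 2.95, the medians of kinase and turnover genes lie between -0.04 and 0.10, and the p53 targets and oocyte markers lie further to the right with Cic knockdown, at medians of 0.77 and 1.27.

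Some gene groups outside the pathway were also called in these libraries. Of 22 p53 target genes tested, 10 were called up with Cic knockdown and 3 with Fgf4, 0 down in both, with median log2 changes of 0.77 and 0.43. Over all genes tested 3.99% and 1.4% were called up. Without the replicate block, 7 of these p53 targets were called with Cic knockdown and 0 with Fgf4. The p53 targets summed to 2041 to 2415 TPM in control, 2324 to 3732 TPM in Fgf4 and 3317 to 3413 TPM in Cic knockdown libraries. A large part of this sum is *btg1*, which averaged 1201 TPM in control and 1681 TPM in Fgf4 embryos and was not called with Fgf4. The death receptor gene *tnfrsf10b* had the smallest p of them in Cic knockdown embryos, with a log2 change of 2.94 (SE 0.33, limma adjusted p = 0.0712).

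Of 7 oocyte and maternal markers tested, 5 were called up with Cic knockdown, where 3.99% of all genes tested were. With Fgf4 0 of the 7 were called by limma and 2 had an unadjusted p under 0.05, as did 13.3% of all genes tested. The oocyte and maternal markers summed to 49.4 to 149 TPM in control, 55.6 to 272 TPM in Fgf4 and 195 to 295 TPM in Cic knockdown libraries, and none of the 7 was at 0 throughout. Heat shock and unfolded protein genes, by contrast, had medians of -0.05 and 0.14. With Fgf4 0 of 19 were called by limma (0 with an unadjusted p under 0.05). With Cic knockdown 1 of 19, *dnajb5*, was called up, and 4 had an unadjusted p under 0.05 by limma, as did 17.2% of all genes tested. Neural plate markers summed to 521 to 620 TPM in control, 316 to 465 TPM in Fgf4 and 187 to 355 TPM in Cic knockdown libraries, and *sox2* and *sox3*, 2 of the 3 tested, fell with Cic knockdown.

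Markers of other tissues were called as well. Of 3 blood and myeloid markers tested, *tal1* and *spib* fell with Fgf4, by log2 changes of -2.29 and -3.73, and *spib* fell with Cic knockdown, by -3.20. The third gene tested was not called, although all 3 had an unadjusted p under 0.05 by limma with Fgf4. The sum of the list did not fall with *tal1* and *spib* in Fgf4 embryos, so these genes do not stand for the whole list. The list, none of whose 4 genes was at 0 throughout, summed to 56.3 to 162 TPM in control, 64.8 to 777 TPM in Fgf4 and 48.1 to 79.6 TPM in Cic knockdown libraries. The neural crest gene *twist1*, 1 of 4 tested, fell in both, by -1.05 and -1.01, in a list that summed to 158 to 323 TPM in control, 91.2 to 213 TPM in Fgf4 and 115 to 199 TPM in Cic knockdown libraries. With Fgf4 the epidermal gene *tp63*, 1 of 4 non-neural ectoderm markers tested, fell by -2.20, and the notochord gene *tbxt*, 1 of 4, rose by 1.65. Non-neural ectoderm markers summed to 648 to 1134 TPM in control and 201 to 1118 TPM in Fgf4 libraries, and notochord markers to 201 to 309 TPM and 327 to 590 TPM. The part of the p53 targets and of the oocyte, neural plate, blood, neural crest, ectoderm and notochord markers in the AP-1 result was not tested.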

How the data were processed

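RNA-seq of 9 whole-embryo libraries was used, 3 per group, grouped and numbered by their labels. The authors estimated transcript abundance with Salmon on the frog genome and aggregated it per gene in sleuth, and the submitters' processing notes also name cutadapt (tool versions not given in the sources used here). The deposited signal is gene-level TPM after a rescaling between libraries that the sources do not name, beside a column with the authors' mean of each group, which was not used here. Each per-sample column was assigned to a library by its name. Depth per gene is unknown.

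Values were taken as log2(TPM + 0.5), which understates changes of low genes. Genes with a mean of at least 1.5 TPM in 1 group were fitted with limma 3.58.1 in R 4.3.3 (lmFit, eBayes with trend; 4 residual and 3.31 prior degrees of freedom) over all libraries, with condition and replicate number, used here in place of the batch term of the study's own model. Of the genes fitted, 13437, 13598 and 13607 were tested for Fgf4 against control, Cic knockdown against control and Cic knockdown against Fgf4. Same-numbered libraries deviated together from their group means (r between 0.380 and 0.791), so the numbers were taken to pair them. Libraries of different groups and numbers had r between -0.729 and 0.337. Deviations within a group cancel out, so high r between same-numbered libraries lowers these values, and the contrast is partly built in. Intervals are 95% from the same fit, which was tested on simulated data.

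The members and lists were chosen with earlier results of these data known. Named are all members, called genes of the lists with a few others for background, and the 5 genes with a symbol most like *fos*, of which 1 is not reported here. List names were matched through RefSeq synonyms where the symbol differed. No sequence was used, and positions in the RefSeq annotation served only for the order of neighbouring genes. Results were recomputed without the replicate block, with a pseudocount of 0.1 or 1, a filter at 5 TPM or none (above 0 in at least 3 libraries), the 6 libraries of a comparison alone, 3 other scalings, a constant variance prior, a 2.24-fold limit, an adjusted p limit of 0.05, and with each library or each replicate number left out.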

Additional observations from a re-analysis of the deposited data

How the results depend on the processing

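The direction of *fos*, *fosb*, *fosl1*, *jun*, *junb*, *jund* and *atf3* was the same under every alternative run in which they were tested against control. Under the TPM limit, however, *fosl1* in both comparisons and *fosb* in Cic knockdown entered through the treated group alone. Their direction was then bound to be up, so its sameness over those runs carries no weight. An adjusted p limit of 0.05 left 0 calls in each comparison, among the AP-1 genes (from 4, 7 and 0) and among all genes (from 344 for Fgf4, 645 for Cic knockdown and 290 between both treatments). Without the replicate block 121, 371 and 143 genes were called, and 3, 6 and 0 AP-1 genes. The Fgf4 calls then lost in the other lists included *elk3*, *map3k1*, *crem* and *tgfb1*. A TPM filter of 5 left 428 and 186 calls for Cic knockdown and between the treatments, the 2.24-fold limit 227 for Fgf4, and the 6 libraries alone 159 between the treatments. No TPM filter, or a constant variance prior, called 1 AP-1 gene, *fosb*, between the treatments. With quantile normalization *fosl1* stood at -0.11 between the treatments. Leaving out libraries gave 1 to 5 AP-1 calls for Fgf4 (lowest without replicate 2), 5 to 7 for Cic knockdown and 0 to 1 between the treatments, and 86 to 1056, 224 to 1170 and 50 to 713 calls among all genes. The log2 change of *fosl2* with Fgf4 then ran from -0.28 to 0.87, and between the treatments *fosl1* ran from -0.36 to 0.34 and *junb* from -0.17 to 0.79. Up calls were 54.7% of all calls for Fgf4 and 41.5% with median-of-ratios scaling, 84.2% for Cic knockdown and 70.8% with quantile normalization, and 82.4% between the treatments and 93.4% after rescaling every library to the same total, which moved the median of all genes there from -0.02 to 0.11. Leaving out libraries moved these shares further, to between 22.5% (without Fgf4 library 3) and 85.5% (without replicate 1) for Fgf4, 66.1% and 93.8% for Cic knockdown, and 54.6% and 91.4% between the treatments. The cause of these differences was not tested. Depth is unknown, so how far it limits the low values of *fosb*, *fosl1* and *batf3* cannot be given.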
